A study of Homo sapiens with 8 samples.

Results

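The control libraries of PC3 and DU145, human prostate cancer cell lines, were compared across all measured genes to describe how the lines differ without an added circular RNA. The study sequenced ribosome-depleted total RNA from PC3 and DU145 transfected with a plasmid for circ0003553 or circ0004592, which are circular RNAs (closed RNA loops made by back-splicing), or with the control plasmid that belongs to that arm. The library names call the arms RCAN3 (circ0003553) and STK3 (circ0004592). All libraries labelled as negative controls were taken, 4 of 8 in all: 2 of PC3 and 2 of DU145, 1 from each arm. Every one of these cultures carries the transfection and the control plasmid, so none is an untransfected culture. The other 4 libraries, which carry a circRNA plasmid, were used only as a separate set in which to look at the same genes.

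PC3 was derived from a bone metastasis and DU145 from a brain metastasis of prostate cancer, and both grow without androgen. In the prostate, luminal cells are held together by E-cadherin junctions, carry simple keratins and depend on androgens for genes such as KLK3 (prostate-specific antigen). Tumour lines that lose this programme often gain genes of basal or mesenchymal cells. As background, PC3 is known for loss of alpha-catenin, and DU145 for defects of RB1 and STK11.

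Total counts were 45210390 and 38134966 in the DU145 controls and 35512031 and 35446337 in the PC3 controls (RCAN3 arm first, here and in every pair of values below). Levels are given as CPM, the count scaled to the library's effective size. Among counts of 1 to 20, the even share was 64.9% to 66.1% over the 8 libraries, so the read pair (2 counts) was taken as the unit of counting error, and 3 read pairs (6 counts, 0.131 to 0.171 CPM) as the most that a count of 0 allows. Across 17282 genes, log2 CPM correlated at r = 0.998 between the DU145 controls, 0.997 between the PC3 controls and 0.826 between lines. Genes that differed at least 2-fold and reached 5 CPM numbered 1 between the DU145 controls, 5 between the PC3 controls and 4798 to 4836 between any library of one line and any of the other. Nothing in the labels says that the arms were separate cultures, so the p-values below measure only the spread between these libraries, which may be technical. For a single gene, an exact permutation test of 2 against 2 cannot go below a two-sided p of 0.333.

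Most measured genes differed between the lines. edgeR's quasi-likelihood test, with Benjamini-Hochberg adjustment over 17282 tested genes, gave an adjusted p under 0.05 for 14402 (83.3%), of which 7395 were higher in PC3 (42.8%) and 7007 lower (40.5%). Because so many passed, a gene is called higher or lower below only where it also differed at least 2-fold, which left 6878 genes (39.8% of those tested), 3562 higher in PC3 (20.6%) and 3316 lower (19.2%). Counts of called list members below are to be read beside these shares. The libraries of the lines did not overlap for 15724 genes (91.0%), 46.6% higher and 44.4% lower in PC3. At least 4-fold differences were found for 1498 genes higher and 1483 lower, and at least 16-fold for 644 and 668. The median absolute log2 difference was 0.78 with a median standard error (SE) of 0.0996. The plot of mean levels shows this spread with the genes described below. Fold changes in counts of a bulk culture do not separate fewer cells with a message from less message per cell. All log2 differences are PC3 minus DU145.

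**Figure D1:**
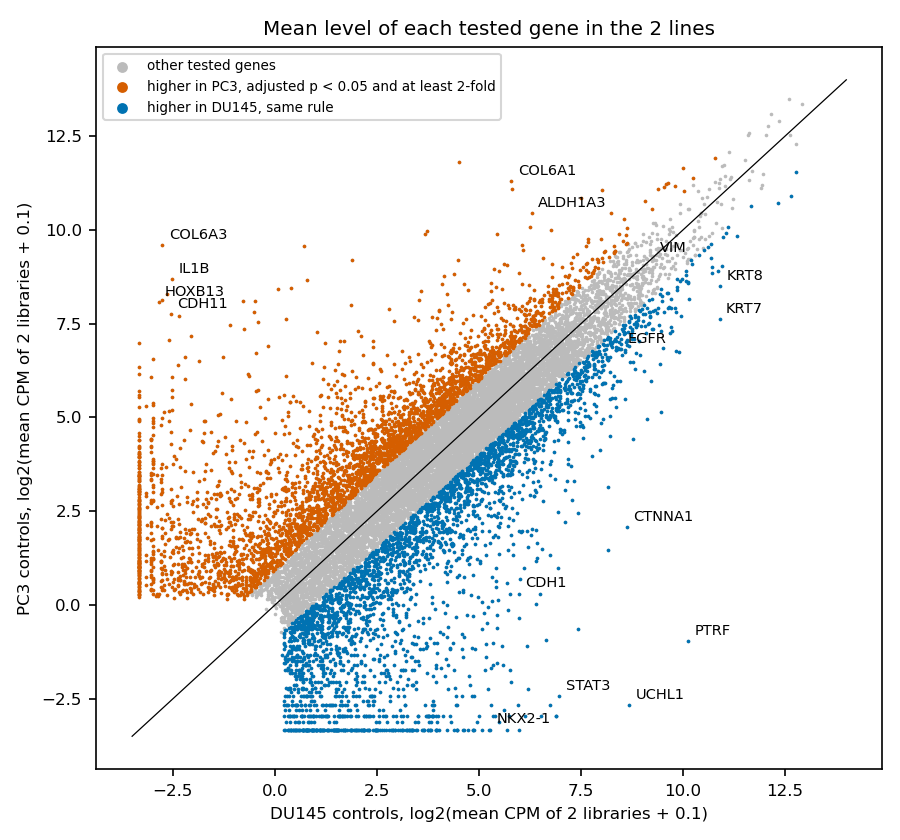
Each point is a tested gene, placed by log2 of its mean CPM plus 0.1 in the DU145 controls (x) and the PC3 controls (y). Orange and blue mark genes with an adjusted p under 0.05 that were at least 2-fold higher in PC3 (3562) or in DU145 (3305). Genes of the Y chromosome and X-inactivation transcripts are not drawn. The column and row of points at the low ends are genes at or near 0 in one line, such as COL6A3 and IL1B in DU145 and UCHL1 and STAT3 in PC3.

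Most line differences had the same direction in the circRNA libraries. Of 6633 genes called in the controls and tested in both sets, 6559 (98.9%) had the same sign in the circRNA libraries, and 6413 (96.7%) also had an adjusted p under 0.05 there, beside 74.1% of all 17296 genes tested in that set. The 34 genes that were significant in the opposite direction include the antigen processing genes PSMB9 and NLRC5 and the interferon-induced RNA sensor DDX58, which are taken up below. Each circRNA library carries another insert than its partner, so this set holds the line difference and the response to a circRNA together.

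The lines were first checked against cell type markers. All 5 epithelial markers (EPCAM, KRT8, KRT18, KRT19, CDH1) were detected in both lines, with levels that sum to 3347 to 3516 CPM over the DU145 controls and 1290.4 to 1332 CPM over those of PC3, about as high in each library of a line and lower in PC3. KLK3, the classical luminal marker, had 0 counts in all 4 controls. Leukocyte markers were at or near 0, with PTPRC at 0.0567 CPM in 1 PC3 control and 0 in the others; the one tested member, CD68, a lysosomal protein that is not restricted to macrophages, had 99.96 and 109 CPM in the DU145 controls and 299 and 275 CPM in the PC3 controls. Erythroid markers summed to at most 0.183 CPM. Of 9 fibroblast and 7 endothelial markers, COL1A1, PDGFRA, PECAM1 and KDR were tested and all were higher in PC3. The remaining members of both lists did not pass the filter. COL1A2, LUM, FAP, VWF, CDH5 and CLDN5 stayed at 0.219 CPM or lower in every library. The endothelial markers summed to 0.782 to 0.942 CPM in DU145, so PECAM1 and KDR passed the filter through PC3 alone and had to be higher there. Likewise, a tested fibroblast marker with 0 counts in both DU145 controls had to be higher in PC3. The fibroblast markers summed to 2.24 to 3.05 CPM in the DU145 controls and 30.8 to 31.9 CPM in the PC3 controls.

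Prostate lineage genes were split between the lines, and neither held the whole set. TMPRSS2, a serine protease of luminal prostate cells, had 10.7 and 11.1 CPM in PC3 and 0 counts in DU145 (at least 75.7-fold higher). HOXB13, a homeobox factor of the prostate and hindgut, had 258 and 280.1 CPM in PC3 against 0 and 3 counts in DU145 (7527-fold, 95% interval 1562 to 46620.0). These genes were present in both PC3 controls and close to absent in both DU145 controls. On the length-corrected RPKM scale, HOXB13 reached 76.99 in PC3 and TMPRSS2 1.77.

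Other members ran the opposite way. FKBP5, a steroid receptor co-chaperone, had 219 and 218 CPM in the DU145 controls and 16.7 and 14.5 CPM in the PC3 controls (log2 -3.81 ± 0.06 SE, edgeR adjusted p = 3.01e-22). PMEPA1, a negative regulator of TGF-beta signalling, fell further, from 66.6 and 69.7 CPM in DU145 to 2.05 and 1.73 CPM in PC3 (log2 -5.17 ± 0.10). PSCA, a surface antigen of prostate and bladder epithelium, was at 1.73 and 1.28 CPM in the DU145 controls and 0.114 and 0.170 CPM in the PC3 controls, low in either line. NDRG1, a stress-responsive differentiation gene, was higher in PC3 at 116 and 106 CPM against 34.5 and 30.3 CPM. In the 20-gene prostate list, 13 were tested, 5 were called higher and 5 lower in PC3, and the median log2 difference was 0.23.

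Simple keratins, the intermediate filaments of luminal epithelium, were mostly lower in PC3: of KRT7, KRT8, KRT18 and KRT19, 3 were called lower and 0 higher. KRT7 had 1949 and 1867 CPM in the DU145 controls and 193 and 197 CPM in the PC3 controls (log2 -3.29 ± 0.05, edgeR adjusted p = 1.16e-23). KRT8 had 1970.0 and 1893 CPM in the DU145 controls and 368 and 357 CPM in the PC3 controls and its partner KRT18 873 and 821 CPM in the DU145 controls and 163 and 151 CPM in the PC3 controls, differences of -2.41 and -2.43 on the log2 scale. KRT19 went the other way and less far, with 487 and 444 CPM in the DU145 controls and 764 and 744 CPM in the PC3 controls (log2 0.70 ± 0.05), and in the circRNA libraries its log2 difference was -0.46. Per length, KRT7, KRT8 and KRT18 stood at 469.7, 283 and 265 RPKM in DU145, whereas in PC3 KRT19 led them with 320.4 RPKM against 47.4, 52.3 and 48.5. The order of the simple keratins therefore differed between the lines.

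Basal cell genes gave no single direction. KRT5, a keratin of basal cells, was near 1 CPM or lower in all 4 libraries (1.10 and 0.756 CPM in the DU145 controls and 0.512 and 1.19 CPM in the PC3 controls) and did not pass the test (edgeR adjusted p = 0.744). COL17A1, a hemidesmosome collagen, was lower in PC3 (1.05 and 1.16 CPM against 28.9 and 26.9 CPM, log2 -4.65 ± 0.13), and so was LAMB3, a laminin chain of the same structure (log2 -1.53), while the laminin chain LAMA3 was higher (1.31). KRT15 was higher in PC3 (68.7 and 70.9 CPM against 14.8 and 12.6 CPM), and KRT6B had 0 counts in DU145 and 4.38 and 3.37 CPM in PC3. KRT6B shares sequence with close keratin paralogs, so its counts are uncertain. The list had 15 members, of which 9 were tested, 3 called higher and 4 lower.

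**Figure D2:**
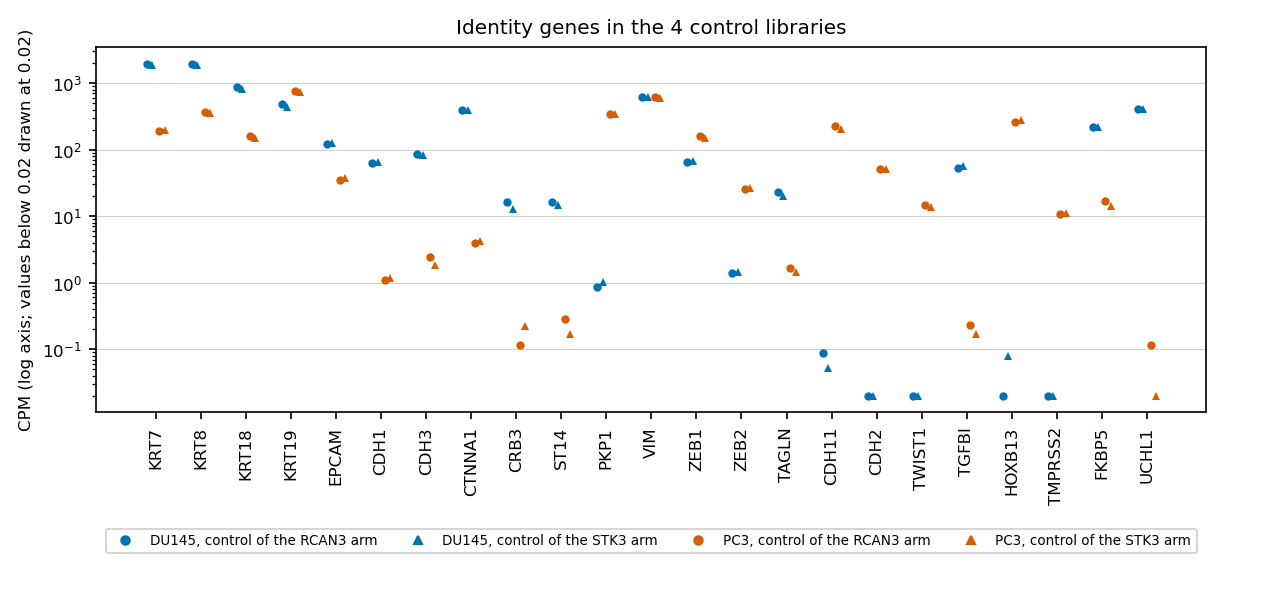
CPM of 23 genes of epithelial, mesenchymal and prostate identity in each of the 4 control libraries (log axis, circles for the RCAN3 arm and triangles for the STK3 arm, values below 0.02 drawn at 0.02). The circles and triangles of one line lie close together, and most genes separate the lines, in both directions; VIM does not.

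Cell junction genes were more often lower than higher in PC3. Of 32 epithelial junction genes, 30 were tested, 16 were called lower and 4 higher in PC3, and the median log2 difference was -1.42, beside 0.03 over all tested genes. CTNNA1, alpha-catenin, which ties E-cadherin to the actin cytoskeleton, had 393 and 400.3 CPM in the DU145 controls and 3.95 and 4.25 CPM in the PC3 controls (log2 -6.59 ± 0.07, edgeR adjusted p = 1.55e-25). CDH1, E-cadherin itself, had 62.3 and 64.5 CPM in the DU145 controls and 1.08 and 1.19 CPM in the PC3 controls (log2 -5.80 ± 0.11). Both messages were thus detected at a low level in PC3 rather than at 0. HSPA9 and SIL1, expressed genes on either side of CTNNA1 on chromosome 5, were expressed in PC3 at 890.2 and 892 CPM and 29.4 and 33.9 CPM (against 1209 and 1271 and 53.04 and 53.2 CPM in DU145). Farther out, EGR1, an immediate early transcription factor, had 23.6 and 24.3 CPM in DU145 and 4 and 2 counts in PC3.

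Further junction genes followed. CDH3, P-cadherin, had 84.7 and 84.3 CPM in the DU145 controls and 2.47 and 1.87 CPM in the PC3 controls, and CLDN1, a tight junction claudin, 52.9 and 55.03 CPM in the DU145 controls and 1.02 and 1.25 CPM in the PC3 controls. CRB3, an apical polarity protein, and ST14, the membrane protease matriptase, were at 16.2 and 13.01 CPM and 16.2 and 14.7 CPM in DU145 and at 0.114 and 0.227 CPM and 0.284 and 0.170 CPM in PC3. MARVELD3, a tight junction protein, had 6.55 and 5.87 CPM in DU145 and 1 and 2 counts in PC3 (147-fold, 95% interval 30.1 to 912). EPCAM, an epithelial adhesion molecule, differed less, at 124 and 126 CPM in the DU145 controls and 34.9 and 37.2 CPM in the PC3 controls (log2 -1.79 ± 0.06). One desmosome gene stood out in the other direction: PKP1, plakophilin 1, had 349 and 344 CPM in the PC3 controls and 0.877 and 1.02 CPM in the DU145 controls (log2 8.52 ± 0.08, edgeR adjusted p = 5.44e-26).

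Among 8 tested regulators of epithelial splicing and transcription (12 in the list), 2 were called higher and 2 lower in PC3. That is 50% of those tested, beside 39.8% of all tested genes. ESRP1 and ESRP2, RNA-binding proteins that set epithelial splice forms, were lower in PC3 (log2 -2.10 ± 0.15 and -1.32 ± 0.11). OVOL2, a zinc finger repressor of mesenchymal genes, was at 5.92 and 6.60 CPM in the DU145 controls and 3.44 and 3.55 CPM in the PC3 controls, under the 2-fold limit. EHF, an ETS factor of epithelia, went the other way with 9.07 and 7.83 CPM in PC3 and 2 counts in each DU145 control (177-fold, 95% interval 48.7 to 1474), and KLF5 was also higher in PC3 (log2 1.16 ± 0.06).

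Genes of mesenchymal cells were higher in PC3 in 9 of 18 tested members of a 24-gene list and lower in 3, with a median log2 difference of 1.02. CDH2, N-cadherin, had 0 counts in both DU145 controls and 52.02 and 51.5 CPM in PC3 (at least 359.5-fold higher). CDH11, a cadherin of bone-forming and stromal cells, had 225 and 206 CPM in PC3 against 4 and 2 counts in DU145 (3013-fold, 95% interval 1030.5 to 14612). TWIST1, a transcription factor of the epithelial-mesenchymal transition, likewise had 0 counts in DU145 and 14.6 and 13.9 CPM in PC3 (at least 99.1-fold). The repressors ZEB1 and ZEB2 were present in DU145 too, ZEB1 at 65.2 and 67.96 CPM in the DU145 controls and 163 and 149 CPM in the PC3 controls and ZEB2 at 1.40 and 1.43 CPM in the DU145 controls and 25.95 and 26.8 CPM in the PC3 controls.

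VIM, vimentin, the usual mesenchymal filament, did not pass the test. It had 619 and 615 CPM in the DU145 controls and 630.4 and 593 CPM in the PC3 controls (log2 -0.01 ± 0.04, edgeR adjusted p = 0.787), so the ranges of the lines overlap. TGFBI, a TGF-beta-induced matrix protein, and TAGLN, an actin-binding protein of smooth muscle, were lower in PC3, TGFBI at 0.227 and 0.170 CPM against 52.7 and 56.3 CPM and TAGLN at 1.68 and 1.45 CPM against 23.5 and 20.1 CPM. In the circRNA libraries the log2 difference of VIM was -0.62.

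More matrix genes were higher than lower in PC3. The 3 chains of collagen VI, a microfibrillar collagen around cells, were all high in PC3. COL6A1 had 2535 and 2486 CPM in the PC3 controls and 55.8 and 55.1 CPM in the DU145 controls (log2 5.5 ± 0.05) and COL6A2 2128 and 2206 CPM in the PC3 controls and 56.3 and 54.9 CPM in the DU145 controls (log2 5.29 ± 0.05). COL6A3 had 800.0 and 739 CPM in PC3 and 2 counts in each DU145 control (16150.5-fold, 95% interval 4471 to 133369). Collagen VI is assembled from all of these chains, and DU145 carried messages for COL6A1 and COL6A2 but almost none for COL6A3. Per length, the PC3 levels were 466, 399 and 38.9 RPKM. Basement membrane chains split by line: COL4A5 and COL4A6, neighbours on the X chromosome, were higher in PC3 (37.98 and 38.8 and 10.5 and 11.97 CPM, against 0.723 and 0.626 CPM and 0 and 2 counts in DU145), whereas COL4A3 had 9.73 and 9.31 CPM in DU145 and 0.142 and 0.170 CPM in PC3. Over 37 collagen and laminin genes, 31 were tested, 17 were called higher and 8 lower in PC3, and the median log2 difference was 1.32.

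Matrix proteases and integrins moved in both directions. ADAMTS1, a secreted metalloprotease, had 0 counts in DU145 and 81.1 and 81.8 CPM in PC3 (at least 566-fold). PLAT, tissue plasminogen activator, had 152 and 156 CPM in the PC3 controls and 1.80 and 2.06 CPM in the DU145 controls (log2 6.32 ± 0.08). SERPINB2, a serine protease inhibitor, had 0 counts in DU145 and 6.25 and 5.62 CPM in PC3. MMP1, interstitial collagenase, was lower in PC3 at 2.96 and 2.75 CPM against 19.8 and 20.2 CPM. Of 25 tested proteases and inhibitors (40 in the list), 9 were called higher and 6 lower. Among 17 tested integrins (26 in the list), 5 were called higher and 3 lower. That is 47.1% of the tested integrins, beside 39.8% of all tested genes. The collagen receptor chains ITGA1 and ITGA2 were higher in PC3 (log2 1.57 and 1.27), and ITGB2, the leukocyte integrin beta chain, lower (-1.77).

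Several tumour suppressor messages were low in PC3. NF1, a RAS GTPase-activating protein, differed on the log2 scale by -2.31 ± 0.08, and the DNA repair genes BRCA1 and BRCA2 by -1.76 and -1.98. RB1 and STK11, for which DU145 is known to carry defects, had messages in both lines, with RB1 at 14.7 and 12.7 CPM in the DU145 controls and 10.6 and 10.5 CPM in the PC3 controls and STK11 at 39.2 and 35.5 CPM in the DU145 controls and 44.9 and 47.5 CPM in the PC3 controls. Reads per gene do not show whether a message encodes an intact protein.

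The cell cycle inhibitors of chromosome 9 split. CDKN2B, which encodes p15, had 312 and 316 CPM in the PC3 controls and 18.3 and 18.5 CPM in the DU145 controls (log2 4.09 ± 0.05), while the adjoining CDKN2A, which encodes p16 and p14ARF, differed by less than 2-fold, with 88.2 and 87.6 CPM against 138 and 141 CPM. Overlapping transcripts at this locus cannot be told apart in these counts. Of 26 tested tumour suppressors (27 in the list), 3 were called higher in PC3 and 9 lower, with a median log2 difference of -0.52. That is 46.2% of those tested, beside 39.8% of all tested genes.

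Proliferation genes were more often lower than higher in PC3. Of 40 cell cycle genes, 38 were tested, 21 were called lower and 2 higher in PC3, and the median log2 difference was -1.14. The called share was 60.5%, beside 39.8% of all tested genes. MKI67, the proliferation antigen Ki-67, had 1844 and 1838 CPM in the DU145 controls and 480.3 and 475 CPM in the PC3 controls (log2 -1.95 ± 0.04, edgeR adjusted p = 1.44e-20). TOP2A, topoisomerase II alpha, had 831 and 832 CPM in the DU145 controls and 172 and 167 CPM in the PC3 controls, and MCM5, a subunit of the replicative helicase, 191 and 197 CPM in the DU145 controls and 33.2 and 31.8 CPM in the PC3 controls. Cyclin genes CCNB2 and CCNE1 differed by -2.18 ± 0.07 and -2.10 ± 0.13. The summed level of the list was 7016 to 7051 CPM in the DU145 controls and 2968 to 3000.2 CPM in the PC3 controls.

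The PI3K and AKT list, by contrast, was balanced, with all 25 members tested, 5 called higher, 4 lower and a median log2 difference of 0.09. Called members made up 36% of the list, beside 39.8% of all tested genes. Regulatory subunits PIK3R2 and PIK3R3 were higher in PC3 (log2 1.43 ± 0.05 and 2.48 ± 0.08), and the receptor IGF1R and its adaptor IRS2 were lower (-1.86 and -1.96).

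A block of neighbouring genes around STAT3 was missing from the PC3 messages. STAT3, the transcription factor of the IL-6 and interferon family, had 125 and 125 CPM in DU145 (5698 and 4812 counts) and 2 and 4 counts in PC3 (1469-fold, 95% interval 502 to 7127). Its relatives STAT5A and STAT5B, which lie beside it, had 0 counts in both PC3 controls, against 7.67 and 7.43 CPM and 29.3 and 28.9 CPM in DU145 (at least 44.3-fold and at least 171-fold lower). At lower coordinates, GHDC had 0 counts in PC3, RAB5C, an endosomal GTPase, had 2 and 0, and KAT2A, the histone acetyltransferase GCN5, had 1 and 0. CTD-2132N18.3, annotated over RAB5C, had nearly the same counts as RAB5C in DU145 (5339 and 4535 against 5357 and 4596), and the 2 cannot be told apart. In all, 7 consecutive genes present in DU145 at 5 CPM or more were at 6 counts or fewer in both PC3 controls. They span 275 kb, chr17:42113108-42388568 (hg38).

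The next genes past STAT3 were low in PC3 too, PTRF with 13 and 16 counts and ATP6V0A1 with 0 and 4. PTRF (cavin-1), the coat protein that shapes caveolae, had 1127 and 1108 CPM in DU145 and 0.370 and 0.454 CPM in PC3 (log2 -11.39 ± 0.09, edgeR adjusted p = 2.10e-27). ATP6V0A1, a proton pump subunit, had 23.1 and 19.98 CPM in DU145 and 0 and 0.113 CPM in PC3. On the outer sides, NKIRAS2 had 68.8 and 69.8 CPM in the DU145 controls and 48.1 and 47.4 CPM in the PC3 controls and NAGLU 5.90 and 6.73 CPM in the DU145 controls and 3.64 and 3.37 CPM in the PC3 controls, so both ends of the gap were bounded by genes that PC3 expressed. The flanking genes ATP6V0A1, NKIRAS2 and NAGLU, like those beside CTNNA1, were chosen after their values were seen. DNA copy number was not measured.

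**Figure D3:**
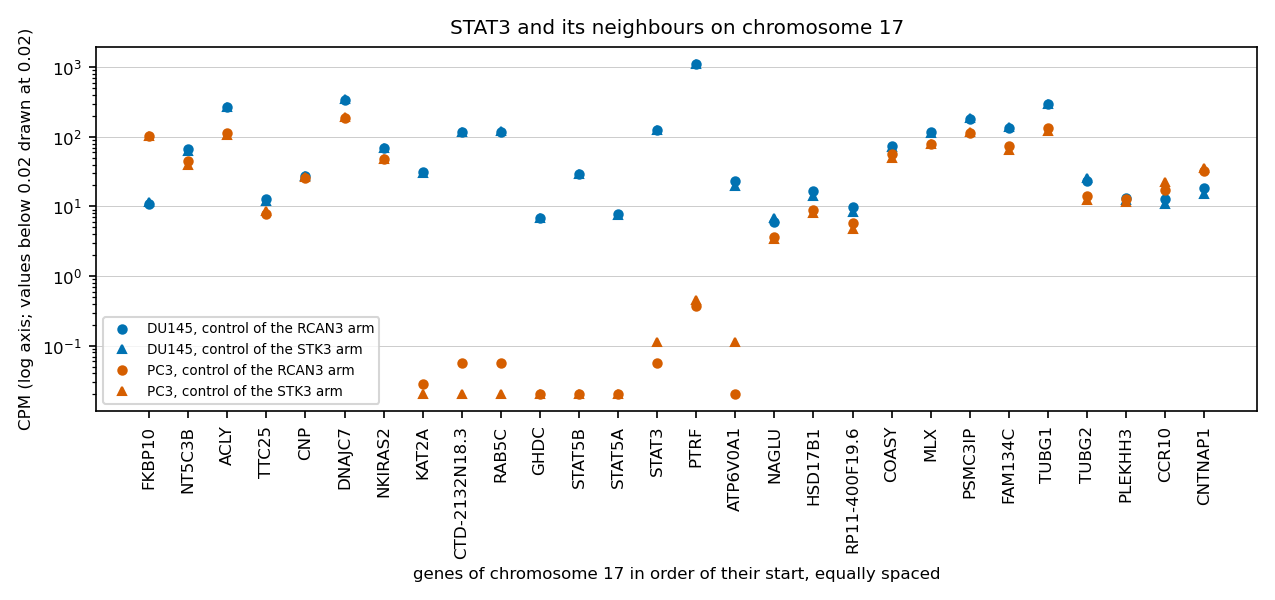
CPM in the 4 control libraries (log axis, values below 0.02 drawn at 0.02) for the genes of at least 5 CPM in some library within 300 kb of the block on chromosome 17, in order of their start and equally spaced. From KAT2A to ATP6V0A1 the PC3 libraries lie at 0.454 CPM or lower while DU145 stays at 6.78 CPM or higher, and on both sides the PC3 libraries are at 3.37 CPM or higher.

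The upstream sequence of 4 genes that were on in one line and at or near 0 in the other is given for reference, since such genes carry the sharpest contrast in these data: STAT3 and NKX2-1 (off in PC3), PRAC1 and IL1B (off in DU145). Each line holds the 250 bases before the RefSeq start (GRCh38.p14), 5′ to 3′ on the gene's strand, with CG dinucleotides, the sites of DNA methylation, in capitals. They lie at chr17:42388443-42388692, minus strand for STAT3, chr14:36519557-36519806, minus strand for NKX2-1, chr17:48722519-48722768, minus strand for PRAC1 and chr2:112836780-112837029, minus strand for IL1B.
STAT3: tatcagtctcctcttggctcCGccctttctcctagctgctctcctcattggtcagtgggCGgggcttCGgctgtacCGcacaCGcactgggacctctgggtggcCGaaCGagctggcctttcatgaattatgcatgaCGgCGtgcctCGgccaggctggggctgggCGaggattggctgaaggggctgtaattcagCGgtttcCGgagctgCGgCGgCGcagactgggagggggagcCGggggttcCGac
NKX2-1: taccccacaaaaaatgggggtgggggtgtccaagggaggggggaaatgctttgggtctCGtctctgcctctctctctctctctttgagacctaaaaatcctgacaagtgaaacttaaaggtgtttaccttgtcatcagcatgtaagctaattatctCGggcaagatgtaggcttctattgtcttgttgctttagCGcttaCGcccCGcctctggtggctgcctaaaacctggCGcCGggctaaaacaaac
PRAC1: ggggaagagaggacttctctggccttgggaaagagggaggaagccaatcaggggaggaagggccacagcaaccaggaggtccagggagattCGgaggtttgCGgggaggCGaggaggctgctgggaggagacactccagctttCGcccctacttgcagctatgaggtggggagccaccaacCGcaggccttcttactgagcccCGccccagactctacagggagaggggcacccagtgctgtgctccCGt
IL1B: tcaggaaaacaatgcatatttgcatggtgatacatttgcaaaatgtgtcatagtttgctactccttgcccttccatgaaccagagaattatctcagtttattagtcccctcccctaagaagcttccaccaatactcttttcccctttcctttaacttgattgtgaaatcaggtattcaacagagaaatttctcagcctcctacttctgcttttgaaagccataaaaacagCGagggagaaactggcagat
They hold 18, 7, 7 and 1 CG dinucleotides. Methylation was not measured, and these counts describe the letters only. As counted here, NKX2-1 runs from 36516392 to 36521149, so its printed bases lie within the counted gene. Those of STAT3, PRAC1 and IL1B overlap their counted genes in part.

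Line-specific presence was seen in both directions. A gene was counted as present in one line only where it had at least 5 CPM in both controls of that line and at most 6 counts in each control of the other. By this rule 167 genes were present only in PC3 (1.41% of 11819 genes at 5 CPM or more in both PC3 controls) and 162 only in DU145 (1.39% of 11615). Of these, 81 and 68 had 0 counts in both controls of the other line. The circRNA libraries of that other line, which the rule did not use, held at most 6 counts in both libraries for 149 of the 167 and 144 of the 162, and all 329 genes had the same sign and an adjusted p under 0.05 there.

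Among the genes present only in PC3, IL1B, the inflammatory cytokine interleukin 1 beta, had 398 and 423 CPM in PC3 and 2 and 4 counts in DU145 (5744-fold, 95% interval 1965 to 27859). INHBB, the activin B subunit, had 213 and 205 CPM in PC3 and 4 counts in each DU145 control (2195-fold, 95% interval 857 to 8057). LINC00261, a long noncoding RNA beside FOXA2, had 0 counts in DU145 and 131 and 123 CPM in PC3 (at least 884-fold). FOXA2 itself, a forkhead factor of endoderm that DU145 expressed at a low level, had 46.3 and 44.2 CPM in the PC3 controls and 0.899 and 0.678 CPM in the DU145 controls. EPB41L3, a cytoskeletal linker, had 284 and 277 CPM against 2 counts in each DU145 control, and CTD-2354A18.1, a noncoding gene on the same chromosome 18, 315 and 317 CPM against 2 and 3 counts. KRT75, a hair follicle keratin, and ANO1, a calcium-activated chloride channel, had 135 and 129.9 CPM and 103 and 93.2 CPM in PC3, with 6 or fewer counts in each DU145 control.

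Among the genes present only in DU145, UCHL1, a neuronal deubiquitinase, had 411 and 409 CPM in DU145 and 4 and 0 counts in PC3 (7222-fold, 95% interval 1999 to 59638). NEFM, a neurofilament subunit, had 49.4 and 48.9 CPM in DU145 and 1 and 2 counts in PC3. F13A1, the A subunit of coagulation factor XIII, had 91.6 and 92.9 CPM against 0 and 2 counts, and DDX43, a helicase normally restricted to testis, 69.3 and 71.04 CPM against 1 count in each. FAM213A, a redox-regulating peroxiredoxin-like gene, had 0 counts in both PC3 controls and 63.99 and 62.6 CPM in DU145 (at least 371-fold lower), and its neighbour TSPAN14 also had 0 counts in PC3 and 14.2 and 13.5 CPM in DU145. TSPAN14 was chosen after its values were seen. FAM83G (PAWS1) had 0 counts in PC3 as well, against 52.5 and 51.1 CPM (at least 304-fold). RPL31P11 is a ribosomal protein pseudogene, so its 103 and 112 CPM in DU145 may include reads of the parent gene.

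The neuroendocrine list did not move as a group. Of 16 members, 5 were tested, 2 called higher and 2 lower. ENO2, neuron-specific enolase, and SYT1, a synaptic vesicle protein, were higher in PC3 (log2 2.65 ± 0.09 and 2.07 ± 0.09), whereas UCHL1 and SNAP25 were the lower ones, SNAP25 at 1.27 and 1.67 CPM in DU145 and 2 and 0 counts in PC3.

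Neighbouring line-specific genes formed 12 runs of 3 or more, 3 present in PC3 and 9 in DU145. Overlapping entries count as separate genes here, such as CTD-2541J13.2 within DSEL, or AC006116.24 and AC006116.27 within ZNF542P. Such entries may share reads, so a run can hold fewer separate loci than genes. The PC3 run on chromosome 17 held HOXB13, its antisense HOXB13-AS1_1, and PRAC1 and PRAC2, small prostate-and-colon transcripts (chr17:48721719-48729178). PRAC1 had 0 counts in DU145 and 15.3 and 17.5 CPM in PC3, and PRAC2 12.5 and 13.1 CPM against 2 and 6 counts. HOXB13-AS1_1 lies within PRAC2 on the same strand, so reads may be shared between them. A second PC3 run on chromosome 18 held DSEL, a dermatan sulfate epimerase-like gene, with 37.8 and 39.1 CPM in PC3 and 0 counts in DU145, and a pair of noncoding genes. The last, on the X chromosome, held the cancer-testis antigens CSAG1, MAGEA12 and MAGEA6.

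In DU145, a run on chromosome 14 held NKX2-1, a homeobox factor of lung and thyroid, with its antisense NKX2-1-AS1, SFTA3 and RP11-896J10.3 (chr14:36473207-36523016). NKX2-1 had 38.3 and 38.6 CPM in DU145 and 0 counts in PC3 (at least 226-fold lower), and SFTA3 16.2 and 18.3 CPM against 2 and 0 counts. On chromosome 15, HEXA, the alpha subunit of the lysosomal hexosaminidase, had 34.2 and 32.7 CPM in DU145 and 0 counts in PC3. PARP6 had 52.5 and 53.7 CPM against 2 and 0 counts. The same run (chr15:72241181-72376476) held 3 noncoding genes at 0 or 1 count in PC3, which overlap PARP6 or HEXA and may share reads with them. On chromosome 17, SLFN12 and SLFN13, of the Schlafen family of RNA-cleaving proteins, had 26.3 and 26.4 CPM and 24.7 and 28.8 CPM in DU145, with 0 counts of SLFN12 and 6 of SLFN13 in each PC3 control. PRKCQ, protein kinase C theta, and LINC00707 formed a run on chromosome 10, and USP32P1, a pseudogene whose counts are uncertain, one on chromosome 17.

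Zinc finger genes of chromosome 19 made up 3 of the DU145 runs, with members such as ZNF568 (14.9 and 16.1 CPM in DU145 against 0 and 1 counts in PC3), ZNF229 (20.8 and 20.9 CPM against 0 counts) and ZNF583 (6.97 and 7.46 CPM against 0 counts). Many of these encode DNA-binding repressors with a KRAB domain. Among genes with a ZNF symbol at 5 CPM or more in both controls of a line, 20 of 306 (6.54%) were present only in DU145 and 4 of 299 (1.34%) only in PC3, beside 1.39% and 1.41% of all genes. On chromosome 19 the counts were 14 of 125 (11.2%) and 1 of 121 (0.826%). Off that chromosome, ZNF655 and ZNF512 were also near 0 in PC3, at 72.3 and 75.6 CPM and 58.97 and 65.8 CPM in DU145 against 4 and 2 counts in each PC3 control.

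Promoter CG content of the line-specific genes was counted in the 300 bases from 250 before to 50 after the RefSeq start. The median was 26 CG over 11383 of the 17282 tested genes that matched the promoter table, 14 over 121 of the 167 genes present only in PC3 and 20 over 97 of the 162 present only in DU145. Windows with 5 CG or fewer made up 9.36%, 28.1% and 15.5% of these, and 35.3% of all 27305 promoters in the table. Neither set of line-specific genes was tested against the rest for this.

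Lineage transcription factors were called higher in PC3 in 23 and lower in 8 of 39 tested members of a 53-gene list, with a median log2 difference of 1.70. TBX3, a T-box repressor, had 159.8 and 155 CPM in the PC3 controls and 4.08 and 3.94 CPM in the DU145 controls (log2 5.29 ± 0.07). EYA1, a transcriptional coactivator of organ development, had 0 counts in DU145 and 9.52 and 10.2 CPM in PC3 (at least 68.5-fold). SOX21, a neural and epithelial SOX factor, had 12.96 and 12.5 CPM in PC3 against 4 and 1 counts in DU145, and DLX1 20.3 and 20.8 CPM in the PC3 controls and 0.373 and 0.183 CPM in the DU145 controls. In every list, a gene that passes the filter through 1 line alone had to differ, so the counts and medians describe the tested members only. With genes at 0 in one line set to their bound, the median of the mucin list below moved from 2.17 to 2.16 and no other list whose median is given here moved.

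HOX genes, which record position along the body axis, differed within as well as between clusters. In the HOXB cluster, HOXB7 and HOXB8 belonged to DU145 (HOXB7 128 and 116 CPM in the DU145 controls and 1.88 and 1.90 CPM in the PC3 controls; HOXB8 3.99 and 4.04 CPM against 0 and 2 counts), whereas HOXB13 at the posterior end belonged to PC3, as given above. HOXA13, the posterior gene of the HOXA cluster, was also higher in PC3 (16.5 and 18.3 CPM in the PC3 controls and 0.855 and 0.730 CPM in the DU145 controls, log2 4.44 ± 0.16), and the noncoding HOTTIP beside it had 0 counts in DU145 and 2.98 and 2.67 CPM in PC3. HOXD3 was higher in PC3 and HOXD9 and HOXC5 lower. Of 30 tested HOX genes (39 in the list), 9 were called higher and 12 lower, with a median log2 difference of -0.35.

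Among prostate and cancer long noncoding RNAs, SCHLAP1, which is associated with aggressive prostate cancer, had 0 counts in DU145 and 5.46 and 5.25 CPM in PC3 (at least 37.2-fold). MIR100HG, the host of miR-100 and let-7a, had 52.6 and 55.7 CPM in the PC3 controls and 3.24 and 4.30 CPM in the DU145 controls. CRNDE and LINC00511 were lower in PC3 (log2 -5.43 ± 0.25 and -2.21 ± 0.12), as was the growth arrest transcript GAS5 (-1.81 ± 0.08). Of 31 listed, 16 were tested, 4 called higher and 5 lower.

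Cancer-testis genes, normally silent outside the germ line, were expressed in both lines but from different members. All 15 tested members of the 54-gene list differed at least 2-fold, 8 higher in PC3 and 7 lower, beside 39.8% of all tested genes. Members that passed the filter through 1 line alone had to differ, so this count says little by itself. MAGEA3, MAGEA6 and MAGEA12 had 0 counts in DU145 and 2.19 and 1.70, 8.27 and 7.88 and 10.8 and 10.7 CPM in PC3. XAGE1A and XAGE1B (5.72 and 6.34 CPM and 9.56 and 8.76 CPM), CT83 (4.62 and 4.93 CPM) and BRDT (9.20 and 9.52 CPM), a bromodomain protein of the testis, were seen in DU145 and had 0 counts in PC3. A further 20 listed members had 0 counts in all 4 libraries. The MAGEA and XAGE1 genes have near-identical copies, so the split of reads among them is uncertain.

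Secreted barrier genes of mucosal epithelium were more often higher in PC3. Of 16 tested members of a 30-gene list, 10 were called higher and 3 lower, with a median log2 difference of 2.17. MUC5B, a gel-forming mucin, had 0 counts in DU145 and 74.2 and 68.8 CPM in PC3 (at least 497-fold). Its neighbours MUC5AC and MUC2 had 11.7 and 8.54 and 4.75 and 3.29 CPM in PC3 and 4 counts each over both DU145 controls. PI3, the elastase inhibitor elafin, had 67.9 and 67.8 CPM against 2 and 4 counts (949.8-fold, 95% interval 325 to 4609), and AGR2, a secretory-pathway disulfide isomerase, 4.04 and 4.65 CPM against 0 counts. WFDC2 (HE4) was seen in DU145 alone, at 1.29 and 1.12 CPM.

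Cytokines and chemokines differed in 21 of 24 tested members (40 in the list), 14 higher in PC3 and 7 lower, with a median log2 difference of 1.43. That is 87.5% of those tested, beside 39.8% of all tested genes. Besides IL1B, the neutrophil-attracting chemokines CXCL1, CXCL6 and CXCL8 were higher in PC3. CXCL8 had 83.3 and 87.3 CPM in the PC3 controls and 7.54 and 7.41 CPM in the DU145 controls (log2 3.51 ± 0.07), CXCL1 75.2 and 77.8 CPM in the PC3 controls and 3.02 and 2.29 CPM in the DU145 controls and CXCL6 33.8 and 34.2 CPM in the PC3 controls and 0.219 and 0.365 CPM in the DU145 controls. CSF3, the granulocyte growth factor, had 13.9 and 15.3 CPM in PC3 and 0 and 2 counts in DU145 (614-fold, 95% interval 109.7 to 24298). PTGS2, cyclooxygenase 2, was low in both lines but higher in PC3 (4.66 and 4.20 CPM against 0.307 and 0.104 CPM). CSF1, the macrophage growth factor, was instead higher in DU145, at 24.8 and 24.2 CPM in the DU145 controls and 1.76 and 1.42 CPM in the PC3 controls (log2 -3.94 ± 0.13).

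Their receptors were less one-sided, with 34 of 37 tested, 6 called higher, 8 lower and a median log2 difference of -0.03. Called receptors made up 41.2% of those tested, beside 39.8% of all tested genes. IL1R1, the receptor for interleukin 1, was lower in PC3, where the ligand IL1B was high (7.82 and 8.68 CPM in the DU145 controls and 1.36 and 1.36 CPM in the PC3 controls). OSMR, the oncostatin M receptor, had 124 and 133 CPM in the DU145 controls and 28.1 and 22.5 CPM in the PC3 controls (log2 -2.34 ± 0.07). SOCS3, a feedback inhibitor of STAT3 signalling, was higher in PC3 (51.1 and 51.05 CPM in the PC3 controls and 11.3 and 11.2 CPM in the DU145 controls, log2 2.18 ± 0.07), where STAT3 itself was at 2 and 4 counts. IL7R and IL13RA2, the decoy receptor for interleukin 13, were also higher in PC3 (IL7R 8.30 and 7.37 CPM in the PC3 controls and 0.219 and 0.365 CPM in the DU145 controls).

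Basal levels of interferon-stimulated genes were higher in PC3 for 17 and lower for 5 of 35 tested members (38 in the list), with a median log2 difference of 0.97. The called share was 62.9%, beside 39.8% of all tested genes. GBP3, a guanylate-binding protein, had 100.01 and 94.7 CPM in the PC3 controls and 9.25 and 10.1 CPM in the DU145 controls (log2 3.33 ± 0.07). IFI44L had 26.4 and 24.5 CPM in PC3 and 0.219 and 0.0522 CPM in DU145, and SAMD9L, an antiviral translation inhibitor, 15.3 and 15.1 CPM in the PC3 controls and 1.47 and 2.43 CPM in the DU145 controls. The absolute levels in PC3 controls were modest next to those in the PC3 circRNA libraries, where IFI44L stood at 404 and 418 CPM and SAMD9L at 395 and 393 CPM. In DU145 circRNA libraries IFI44L stayed at 0.174 and 0.243 CPM.

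In the controls, more antigen presentation genes were lower than higher in PC3, unlike the interferon list. Of 24 tested (25 in the list), 11 were called lower in PC3 and 1 higher, 50% beside 39.8% of all tested genes. The median log2 difference was -0.86. The summed level of the list did not follow, at 4558 to 4719 CPM in the DU145 controls and 4870 to 4917 CPM in the PC3 controls. NLRC5, the transactivator of class I genes, had 6.18 and 5.84 CPM in the DU145 controls and 0.483 and 0.709 CPM in the PC3 controls (log2 -3.33 ± 0.23), PSMB9, an immunoproteasome subunit, 8.70 and 8.81 CPM in the DU145 controls and 2.08 and 1.42 CPM in the PC3 controls, and TAP2, a peptide transporter, 190.4 and 182 CPM in the DU145 controls and 60.8 and 55.98 CPM in the PC3 controls. CD74, the class II invariant chain, had 16.4 and 15.3 CPM in DU145 and 0 and 2 counts in PC3 (561-fold, 95% interval 100.2 to 22164). In the circRNA libraries the direction of some of these was opposite: PSMB9 stood at 9.97 and 9.32 CPM in DU145 and 21.4 and 21.8 CPM in PC3, and NLRC5 at 7.27 and 6.74 CPM and 17.1 and 18.4 CPM. HLA genes are highly polymorphic, and the lines' own alleles may map unequally to the reference.

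Sensors of foreign nucleic acid were balanced, 4 higher and 4 lower among 20 tested (24 in the list). The share called was 40%, beside 39.8% of all tested genes. MB21D1 (cGAS), the cytosolic DNA sensor, was lower in PC3 (26.1 and 26.7 CPM in the DU145 controls and 4.09 and 3.80 CPM in the PC3 controls, log2 -2.74 ± 0.10), and IFI16, a nuclear DNA sensor, was higher (129 and 131 CPM in the PC3 controls and 26.7 and 26.2 CPM in the DU145 controls, log2 2.29 ± 0.06). DDX58 (RIG-I), the sensor of RNA with a 5′ triphosphate, had 20.9 and 21.4 CPM in the DU145 controls and 10.4 and 10.6 CPM in the PC3 controls in the controls, and 24.3 and 20.5 CPM in DU145 and 367 and 337 CPM in PC3 in the circRNA libraries. MAVS, its signalling partner, differed by 1.09 ± 0.06. TLR4, the endotoxin receptor, had 0 counts in DU145 and 2.05 and 1.76 CPM in PC3.

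Receptor tyrosine kinases differed member by member: 32 of 46 were tested, 10 called higher and 7 lower in PC3, with a median log2 difference of 0.23. Called kinases made up 53.1% of those tested, beside 39.8% of all tested genes. EGFR had 355 and 359 CPM in the DU145 controls and 113 and 112 CPM in the PC3 controls (log2 -1.67 ± 0.05, edgeR adjusted p = 1.56e-18), and MET, the hepatocyte growth factor receptor, 176 and 182 CPM in the DU145 controls and 276 and 264 CPM in the PC3 controls (log2 0.59 ± 0.05). KDR, the main VEGF receptor, had 46.3 and 46.8 CPM in PC3 against 2 and 4 counts in DU145 (652-fold, 95% interval 223 to 3164), while the lymphatic VEGF receptor FLT4 had 18.5 and 18.3 CPM in DU145 and 0 counts in PC3 (at least 108-fold lower). The ephrin receptors EPHA5 and EPHA7 had 0 counts in DU145 and 8.10 and 7.80 CPM and 13.6 and 14.4 CPM in PC3, and ALK 14.2 and 12.9 CPM in the PC3 controls and 0.241 and 0.183 CPM in the DU145 controls. KDR and PECAM1 are endothelial markers too. The remaining endothelial markers VWF, CDH5, CLDN5 and TEK were at 0.219 CPM or lower in every library, and TIE1 reached 0.910 and 1.76 CPM in PC3.

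Growth factors were called higher in PC3 in 13 and lower in 6 of 29 tested (38 in the list; median log2 0.80). INHBA, the activin A subunit, had 176 and 179 CPM in the PC3 controls and 0.263 and 0.469 CPM in the DU145 controls (log2 8.94 ± 0.11), so both activin subunits were high in PC3. IGF2, insulin-like growth factor 2, had 127 and 107 CPM in the PC3 controls and 4.84 and 5.45 CPM in the DU145 controls, and FGF5 15.4 and 15.7 CPM in the PC3 controls and 0.110 and 0.0522 CPM in the DU145 controls. Ligands of the EGF family split: EREG, epiregulin, had 63.8 and 61.4 CPM in the DU145 controls and 0.796 and 0.567 CPM in the PC3 controls (log2 -6.51 ± 0.12), NRG1, neuregulin 1, had 3.59 and 4.09 CPM in DU145 and 0 counts in PC3, and EPGN, epigen, was higher in PC3 (6.94 and 7.80 CPM in the PC3 controls and 0.0219 and 0.156 CPM in the DU145 controls). Insulin-like growth factor binding proteins IGFBP3 and IGFBP5 were also PC3 genes, at 250.2 and 263 CPM in the PC3 controls and 3.59 and 3.52 CPM in the DU145 controls and 42.1 and 39.2 CPM in the PC3 controls and 0.175 and 0.104 CPM in the DU145 controls. Of 8 such genes 7 were tested, 4 called higher and 2 lower.

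WNT genes were divided, 9 higher and 10 lower among 31 tested (49 in the list). The receptor FZD8 had 224 and 221 CPM in the PC3 controls and 0.526 and 0.678 CPM in the DU145 controls (log2 8.54 ± 0.09), and the secreted inhibitor DKK1 207 and 217 CPM in the PC3 controls and 29.04 and 28.2 CPM in the DU145 controls. Other secreted inhibitors, DKK3 and SFRP1, were lower in PC3, SFRP1 with 0 counts against 7.01 and 7.56 CPM. In the NOTCH pathway, 7 were called higher and 3 lower of 18 tested (24 in the list). JAG1, a NOTCH ligand, had 88.8 and 84.6 CPM in the PC3 controls and 5.19 and 5.19 CPM in the DU145 controls and HEY1, a NOTCH target, 197 and 197 CPM in the PC3 controls and 0.986 and 1.23 CPM in the DU145 controls (log2 7.48 ± 0.09), while the ligand JAG2 and the target HEYL were lower (log2 -2.76 and -4.81).

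Several caveola genes were low in PC3. Of 10 members, 9 were tested, 5 called lower and 0 higher, with a median log2 difference of -1.26. Beside PTRF, described with the STAT3 block, the other cavins SDPR (cavin-2) and PRKCDBP (cavin-3) were at 37.9 and 40.2 CPM and 16.96 and 13.8 CPM in DU145, and at 2 counts in each PC3 control and 0 counts. These genes lie on chromosomes 2 and 11, away from PTRF. CAV1, caveolin 1, the membrane scaffold of caveolae, was present in both lines at 124 and 129 CPM in the DU145 controls and 94.04 and 91.9 CPM in the PC3 controls (log2 -0.44 ± 0.05), and CAV2 differed by -1.26 ± 0.06. EHD2, the ATPase at the caveolar neck, had 40.1 and 39.1 CPM in the DU145 controls and 1.73 and 1.42 CPM in the PC3 controls. PC3 thus carried caveolin messages with almost no messages of these 3 cavins.

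Genes of the NRF2 oxidative stress response were lower in PC3 in 14 and higher in 2 of all 35 members (median log2 -0.65). The called share was 45.7%, beside 39.8% of all tested genes. NQO1, a quinone reductase, had 704 and 690.0 CPM in the DU145 controls and 86.96 and 83.4 CPM in the PC3 controls (log2 -3.03 ± 0.05, edgeR adjusted p = 1.10e-22), SRXN1, sulfiredoxin, 228 and 235 CPM in the DU145 controls and 34.97 and 35.1 CPM in the PC3 controls, and AKR1B1, aldose reductase, 91.2 and 87.8 CPM in the DU145 controls and 1.05 and 1.19 CPM in the PC3 controls (log2 -6.31 ± 0.10). The glutathione transferases GSTM1 and GSTM2 were opposite to each other (GSTM1 10.3 and 10.7 CPM in the DU145 controls and 0.512 and 0.425 CPM in the PC3 controls; GSTM2 1.84 and 2.43 CPM in the DU145 controls and 19.3 and 19.3 CPM in the PC3 controls), and as close paralogs they may share reads.

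Aldehyde dehydrogenases split sharply. ALDH1A3, a retinoic acid-forming enzyme used as a stem cell marker, had 1413 and 1387 CPM in the PC3 controls and 76.9 and 79.8 CPM in the DU145 controls (log2 4.16 ± 0.05), and ALDH1A1 6.91 and 6.78 CPM against 2 and 0 counts. ALDH1B1, ALDH1L2 and ALDH2 were each about as far in the other direction (log2 -3.02 ± 0.09, -3.04 ± 0.12 and -3.05 ± 0.09), and ALDH16A1 had 8.66 and 9.21 CPM in DU145 and 1 and 3 counts in PC3. CRABP2, which carries retinoic acid to its receptor, was higher in PC3 (352 and 334 CPM in the PC3 controls and 46.7 and 47.3 CPM in the DU145 controls). Of 23 tested aldehyde dehydrogenase and retinoid genes (32 in the list), 5 were called higher and 6 lower. That is 47.8% of those tested, beside 39.8% of all tested genes.

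Amino acid and one-carbon enzymes were called lower in PC3 in 13 and higher in 3 of 33 tested (36 in the list, median log2 -0.73). Called enzymes made up 48.5% of those tested, beside 39.8% of all tested genes. BCAT1, a branched-chain transaminase, had 249 and 256 CPM in the DU145 controls and 29.9 and 27.7 CPM in the PC3 controls, and NNMT, nicotinamide N-methyltransferase, 175 and 170.1 CPM in the DU145 controls and 4.66 and 6.15 CPM in the PC3 controls (log2 -5.00 ± 0.08). CPS1, the entry enzyme of the urea cycle, was one of the higher ones, at 10.4 and 8.88 CPM in PC3 and 4 and 0 counts in DU145.

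Glycolysis and hypoxia genes were called higher in PC3 in 12 and lower in 7 of 30 tested (32 in the list). The glucose transporter SLC2A1 was among the lower, at 169 and 153 CPM in the DU145 controls and 9.24 and 10.4 CPM in the PC3 controls (log2 -4.04 ± 0.07), together with the phosphofructokinase PFKP (log2 -2.43) and VEGFA (678 and 685 CPM in the DU145 controls and 171 and 179 CPM in the PC3 controls). ALDOC and CA12 were among the higher (log2 3.38 ± 0.25 and 3.10 ± 0.17). In lipid metabolism, 8 were higher and 10 lower of 36 tested (37 in the list), 50% beside 39.8% of all tested genes. FASN, fatty acid synthase, and FDFT1, squalene synthase, were lower in PC3 (log2 -1.60 ± 0.06 and -2.29 ± 0.06), and the fatty acid importer of mitochondria CPT1A was higher (1.97 ± 0.07). FABP4, a fatty acid carrier of adipocytes, had 65.9 and 62.8 CPM in PC3 and 6 and 4 counts in DU145 (541-fold, 95% interval 231 to 1667).

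All 13 mitochondrially encoded messages had an adjusted p under 0.05 and were higher in PC3, none by 2-fold. They summed to 41086 to 44512 CPM in the DU145 controls, against 64401 to 66516 CPM for PC3, and the median log2 difference was 0.50. MT-ND1, a complex I subunit, had 2934 and 3343 CPM in the DU145 controls and 6452 and 5897 CPM in the PC3 controls (log2 0.98 ± 0.05), and MT-CO3, a complex IV subunit, 4519 and 4637 CPM in the DU145 controls and 8476 and 8849 CPM in the PC3 controls (log2 0.92 ± 0.04). In the circRNA libraries these differences were 0.20 and 0.05, and that of MT-ND5, another complex I subunit, was -0.54, against 0.50 in the controls. With all 8 libraries in one fit the difference of MT-ND5 was -0.0064, almost no difference between the lines.

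S100 proteins and annexins were called higher in PC3 in 5 and lower in 6 of 22 tested (28 in the list), with a median log2 difference of -0.50. The share called was 50%, beside 39.8% of all tested genes. By an adjusted p under 0.05 alone, whatever the fold, 8 were higher and 14 lower. S100A10 and ANXA3 were lower in PC3 (log2 -1.46 ± 0.05 and -2.23 ± 0.06), and ANXA7 and ANXA11, both on the long arm of chromosome 10, were higher (1.95 ± 0.05 and 1.41 ± 0.05). The host genes of the circRNAs also differed: RCAN3, a calcineurin regulator, by less than 2-fold, was at 20.8 and 18.2 CPM in the DU145 controls and 33.5 and 29.98 CPM in the PC3 controls (log2 0.70 ± 0.08), and STK3, the Hippo kinase MST2, at 28.7 and 26.03 CPM in the DU145 controls and 7.79 and 9.27 CPM in the PC3 controls (log2 -1.68 ± 0.10). These gene counts do not separate a circular RNA from its linear host message.

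**Figure D4:**
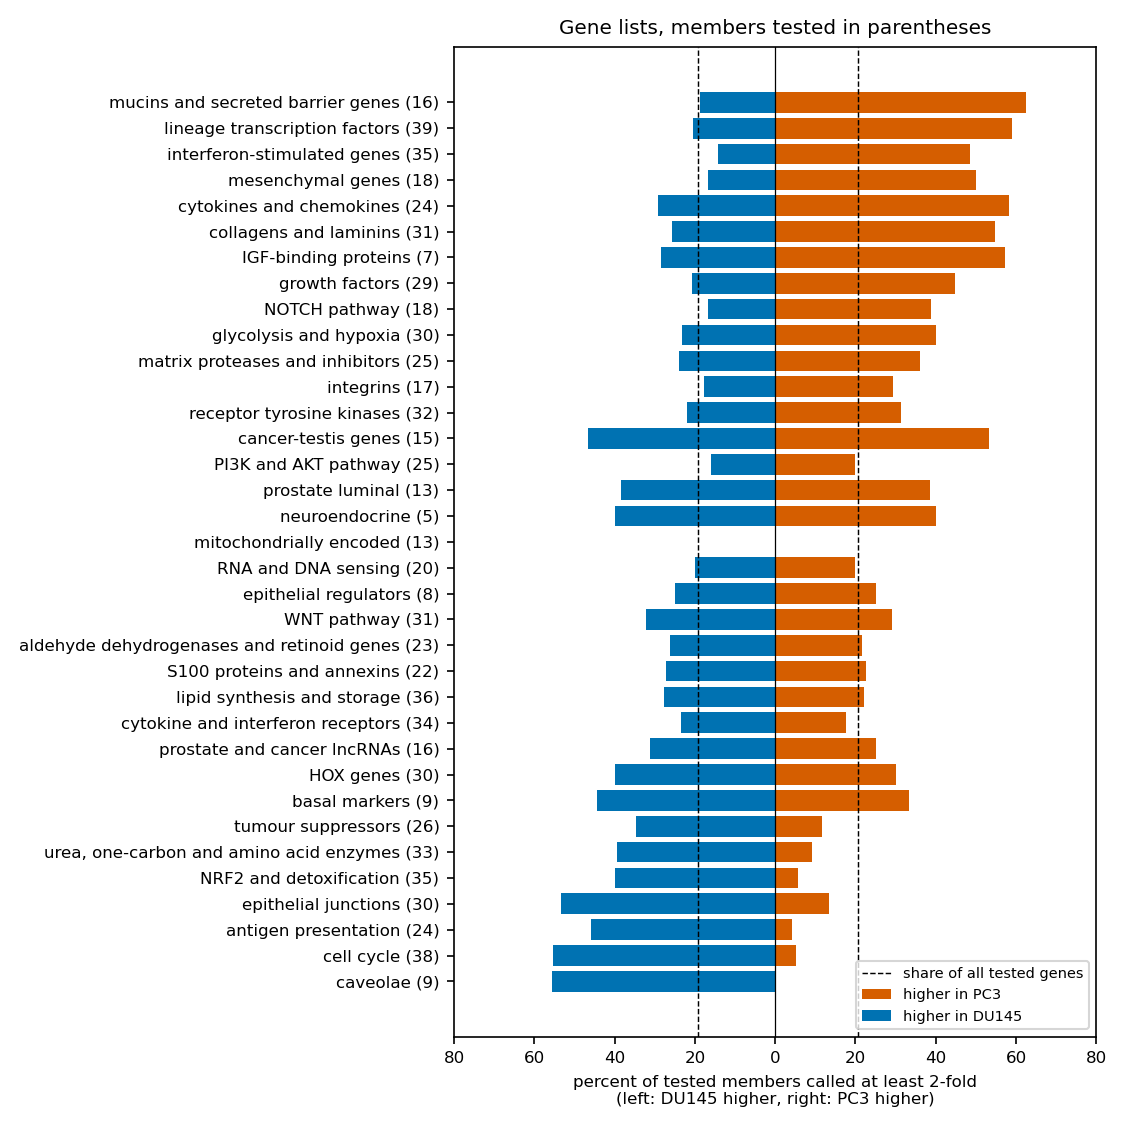
Percent of the tested members of each gene list (number in parentheses) with an adjusted p under 0.05 and at least a 2-fold difference, higher in DU145 to the left and in PC3 to the right, ordered by the higher share minus the lower share. Dashed lines mark the shares over all tested genes (3305 and 3562 of 17270, without genes of the Y chromosome and X-inactivation transcripts). Mucins, lineage factors and mesenchymal genes extend to the right, and caveola, cell cycle, antigen presentation and junction genes to the left.

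Line differences also varied along the chromosomes. Among the autosomes and the X chromosome, the median log2 difference of tested genes ran from -0.61 on chromosome 9 (18.5% with an adjusted p under 0.05 and higher, 66.3% lower in PC3) to 0.56 on the X chromosome (60.8% higher, 24.0% lower). In sliding windows of 51 neighbouring genes at a mean of 5 CPM or more, 11070 in all, the median lay below -0.82 in 5% and above 0.97 in another 5%. The highest was on the long arm of chromosome 10, chr10:73071295-80092557, with a median of 2.16, where 50 of 51 genes had an adjusted p under 0.05 and were higher in PC3, whatever the fold, and 0 were lower. It holds ANXA7 (log2 1.95), the acetyltransferase KAT6B (2.68), the ribosomal protein RPS24 (3.04) and VDAC2 (0.60), a mitochondrial pore. The lowest was chr17:21532477-31538217, with a median of -1.84 and 50 of 51 genes lower by the same adjusted p, among them NF1 (-2.31), TRAF4 (-2.76) and the kinase NLK (-2.70).

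Further windows that were low in PC3 lay on chromosome 14 (chr14:24305096-39183218, median -1.41), the short arm of chromosome 8 (chr8:213186-22621514, median -1.38) and the short arm of chromosome 10 (chr10:988019-14904315, median -1.36). The chromosome 14 window contains the NKX2-1 run described above, and the chromosome 10 window the LINC00707 run. Windows that were high in PC3 lay at the end of chromosome 19 (chr19:53963040-57518404, median 1.43), the end of chromosome 8 (chr8:143597835-145002895, median 1.37) and the start of chromosome 1 (chr1:1324756-6624033, median 1.31). The chromosome 19 window overlaps one of the zinc finger runs that PC3 lacked, so genes at 0 and genes above the DU145 level lie side by side there. Windows overlap one another, and KAT6B, RPS24, VDAC2, TRAF4 and NLK were chosen after their values were seen.

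**Figure D5:**
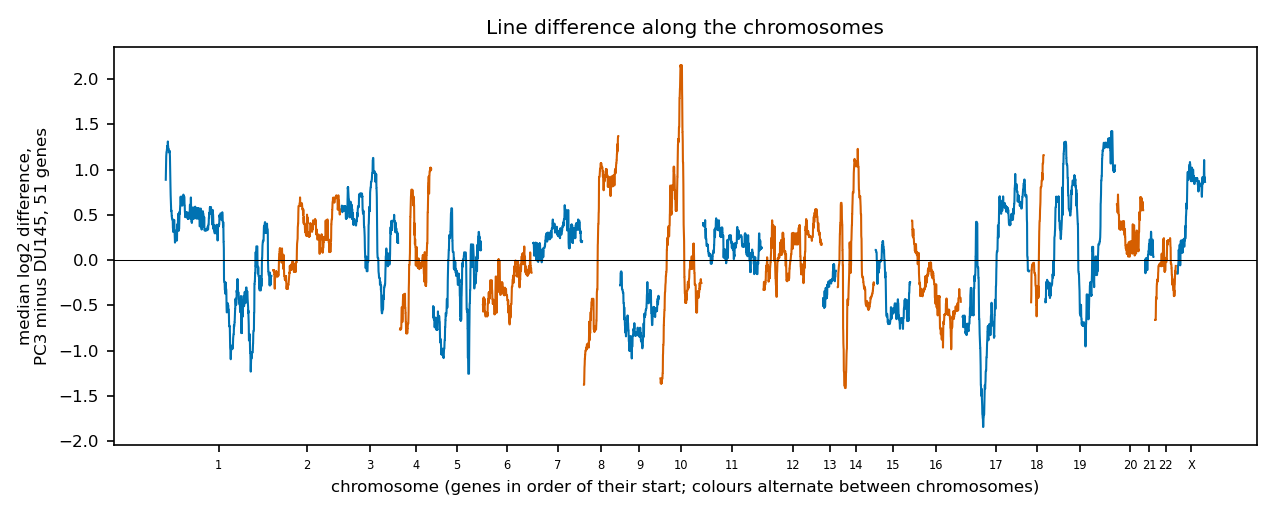
Median log2 difference (PC3 minus DU145) in sliding windows of 51 neighbouring genes of at least 5 CPM, by chromosome, genes in order of their start; colours alternate between chromosomes. The peak of 2.16 is on chromosome 10 and the trough of -1.84 on chromosome 17, and long stretches of one sign end abruptly within chromosomes 8, 10, 14 and 17.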

How the data were processed

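Gene counts and RPKM values deposited by the authors were used for the 4 control libraries. Per the submitters' processing notes, reads were trimmed with Trimmomatic 0.36 and counted with featureCounts (Subread 1.5.1) on hg38, and edgeR 3.12.1 was used. The aligner, annotation release, strand setting and use of molecular identifiers in counting are not given in the sources used here, so overlapping or antisense genes cannot be separated and near-identical paralogs are uncertain. Per the labels' protocols, RNA was TRIzol-extracted, depleted of ribosomal RNA and read as paired 150-base reads from a stranded kit. The deposited RPKM values were used only to compare levels between genes and in an alternative.

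Counts of both arms' tables were joined by gene, and a gene missing from one table was set to 0 there. Genes with at least 1 CPM in at least 2 of 4 libraries were fitted with edgeR 4.0.16 (TMM scaling, quasi-likelihood test, line as the only term) in R 4.3.3. P-values were adjusted by Benjamini-Hochberg. An SE is the absolute log2 difference divided by the square root of the test's F. The script was tested on simulated data. A gene with 0 counts in both libraries of a line is given a lower bound of its fold against 6 counts per library, and one with few counts there an exact (Clopper-Pearson) 95% interval of the ratio on read pairs. Intervals and bounds cover counting error only.

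Named genes are the 15 largest differences each way among genes averaging 20 CPM or more, the 10 highest genes per direction among those present in one line only, up to 8 members of each list with an adjusted p under 0.05 by size of the difference, 22 genes of known interest, and members of runs. Genes of the Y chromosome and X-inactivation transcripts were left out, and some other genes that the rule names are not reported here. The members and lists were chosen with earlier results of these data known. Alternatives were DESeq2 1.42.0, limma 3.58.1 on RPKM, other filters, a block by arm, all 8 libraries, and leaving out each library. Figures were drawn with matplotlib 3.10.9.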

Additional observations from a re-analysis of the deposited data

How the results depend on the processing

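The count of genes with an adjusted p under 0.05 stayed within 1.5 times 14402 under every alternative run, from 11357 with a filter of 5 CPM to 16197 with no filter, with 13349 by DESeq2 and 13706 with all 8 libraries. The arm number did not pair the libraries: the deviations of the RCAN3 arm controls from their line means correlated at -0.085 across genes, and with the replicate block by arm (1 residual degree of freedom) the count was 14166, with 6889 at least 2-fold. Leaving out each library in turn gave 13256 to 13880, a lone library being assumed to vary like the other line. Among genes at least 2-fold different, limma on log2(RPKM + 1) gave 3895 (1989 higher and 1906 lower in PC3), on a scale that shrinks differences of low genes. The filter of 5 CPM left 2161 lower, from fewer genes tested. A test against a 2-fold difference (glmTreat) gave 5675. Genes present in one line only numbered 444 (PC3) and 502 (DU145) at 1 CPM or more and 46 and 39 at 20 CPM or more. Of 353 named genes with a test, 336 kept their direction and side of the threshold under every alternative. With all 8 libraries the log2 difference reversed to 0.12 for HLA-F and 1.54 for DDX58. For MT-ND5 it shrank to -0.0064, almost no difference between the lines. Leaving out a library turned VIM (-0.072 to 0.032, above 0 without the second PC3 control) and KRT5 (-0.86 to 0.33, with 0.17 without the first DU145 control and 0.33 without the first PC3 control), neither of which passed the test. The cause of these changes was not tested.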
